A study of Bos taurus with 13 samples.

Results

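The circadian clock genes other than *PER1* were described in whole blood of dairy cows that differed in milk cortisol. The 10 genes *PER2*, *PER3*, *CRY1*, *CRY2*, *CLOCK*, *ARNTL*, *NR1D1*, *NR1D2*, *DBP* and *TEF* were looked for by gene name in the count tables. Of these, 8 had an entry among the 16095 named genes, while no entry carried the name *PER2* or *PER3*, and both were not analysed here. All 8 passed the filter on low counts, and were among the 11033 genes tested.

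The clock is a feedback loop of transcription. *CLOCK* and *ARNTL* (also called BMAL1) encode the pair of activators that switch on the period and cryptochrome genes, and the PER and CRY proteins return to block the activators. A second arm runs through *NR1D1* and *NR1D2*, which encode the nuclear receptors REV-ERB alpha and beta and repress *ARNTL*, while *DBP* and *TEF* are outputs of the loop and encode transcription factors of the PAR bZIP family. Blood leukocytes carry such a clock, and glucocorticoids are known to act on it, with *PER1* as a direct target.

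RNA-seq counts of 13 lactating Italian Red Pied cows of a single commercial farm were used. Replicates 1 to 7 form the high group (n = 7), and replicates 8 to 13 the low group (n = 6). The study selected more cows for each group than are among these 13. The groups are untreated animals taken from the top and from the bottom of the ranking of milk cortisol. Milk was taken at morning milking, and blood on the same day from the tail, after milking and before feeding, into tubes that preserve RNA. Whether all cows were sampled on a single date is not stated, and their ages are not given in the sources used here. Each gene was thus measured once per cow, the order in which the cows were bled is not stated, and a level cannot be set against the hour of sampling. Whole blood holds many cell types, and in such a sample fewer cells of a type and less RNA per cell cannot be told apart.

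Counts on named genes ranged from 12198355 to 23709740 per cow (high) and from 11045599 to 28124575 per cow (low). In counts scaled to library size (CPM), the limit set by a count of 0 (3 counts) was thus 0.107 to 0.272 CPM. Such limits cover counting error only. Markers of blood cells were present, with all 12 T cell, all 8 B cell and all 6 monocyte markers and 9 of 11 neutrophil markers in the tables (no entry for *CXCR1* and *CXCR2*). The library of replicate 4 of the high group stood apart from the others. It held the highest value of the 13 cows in 27.9% of the genes tested and the lowest in 23.8%, and its score on the first principal component, with 29.1% of the variance, was 62.6 against −31.5 to 19.3 in the other cows. Fold changes and correlations that this library moved strongly are given with and without it.

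To compare genes with each other, levels were expressed per length as RPKM, which is CPM per kilobase of exon. *DBP* had the highest level (26.0 ± 3.26 RPKM, SD, n = 13 cows), followed by *CRY2* (16.7 ± 2.27), *TEF* (10.8 ± 1.41), *ARNTL* (8.59 ± 1.66), *CRY1* (5.43 ± 1.21), *NR1D1* (4.82 ± 0.918), *NR1D2* (4.43 ± 2.12) and *CLOCK* (0.788 ± 0.372). Per length, the output genes *DBP* and *TEF* and the repressor *CRY2* thus stood above both activators, and *CLOCK* stood far below its partner *ARNTL*. The place of *TEF* above *ARNTL* rests on the exon lengths of the gene models (933 and 2313 bases). In CPM, *TEF* (10.0 on average) was below *ARNTL* (19.9). These lengths enter every RPKM ratio in the same way in each cow, and their accuracy was not tested. For comparison, *PER1* was at 4.95 ± 0.686 RPKM, near *NR1D1*.

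Neighbours in this order were compared by the ratio of their RPKM within each cow, with an exact two-sided sign-flip permutation test over 8192 sign patterns and Benjamini-Hochberg adjustment over the 7 neighbour pairs. *DBP* exceeded *CRY2* in 13 of 13 cows, by a mean log2 ratio of 0.64 (adjusted p = 4.27e-04, exact test). The same held for *CRY2* over *TEF* (0.63), *ARNTL* over *CRY1* (0.67) and *NR1D2* over *CLOCK* (2.52), each in 13 of 13 cows and each at the smallest p that this test can give (0.000244 before adjustment). *TEF* exceeded *ARNTL* in 10 of 13 cows (log2 ratio 0.34, adjusted p = 0.00684, exact test). The neighbours *CRY1* and *NR1D1*, and likewise *NR1D1* and *NR1D2*, could not be ordered over all 13 cows. *CRY1* and *NR1D2* are not neighbours in the order and were not compared. The log2 ratio of *CRY1* over *NR1D1* was 0.16 with 9 of 13 cows in that direction (adjusted p = 0.226, exact test), and that of *NR1D1* over *NR1D2* was 0.20, also with 9 of 13 cows (adjusted p = 0.226, exact test). Without replicate 4 of the high group the latter ratio was 0.33 and passed the threshold (adjusted p = 0.0137, exact test).

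*CLOCK*, which encodes a DNA-binding activator of the loop, lies on chromosome 6 (72574278 to 72633079, minus strand, UMD3.1) and was the least counted of the 8 genes, with 10 to 71 counts per cow. In the high group the lowest, median and highest levels were 0.809, 1.76 and 4.56 CPM. In the low group they were 1.55, 1.80 and 2.78 CPM. The high group spanned the whole range of the low group and went beyond it at both ends, with replicates 2 and 3 at the bottom (1.05 and 0.809 CPM) and replicate 4 at the top.

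*ARNTL* encodes the partner of CLOCK and lies on chromosome 15 (39841299 to 39948727, minus strand), with 134 to 526 counts per cow. Its lowest, median and highest levels were 17.3, 20.0 and 25.9 CPM in the high group. In the low group they were 12.0, 18.8 and 26.3 CPM. Here the low group held both the highest cow (replicate 9) and the lowest (replicate 12), and the groups overlapped.

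*CRY1* and *CRY2* encode the cryptochromes, the repressors that act with the PER proteins. *CRY1* lies on chromosome 5 (70606115 to 70701030, minus strand) and had 95 to 253 counts per cow, with lowest, median and highest levels of 7.21, 9.54 and 14.9 CPM in the high group. The corresponding levels in the low group were 6.62, 8.90 and 11.9 CPM. Its highest level was again that of replicate 4 of the high group, and the lowest that of replicate 13 of the low group. *CRY2*, on the plus strand of chromosome 15 (76753525 to 76790450), had 344 to 1172 counts per cow and reached 29.2, 35.7 and 46.8 CPM (lowest, median and highest) in the high group. In the low group these were 30.8, 39.8 and 44.9 CPM. Both extremes of *CRY2* were cows of the high group, replicate 7 at the bottom and replicate 2 at the top.

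*NR1D1*, on chromosome 19 (41040926 to 41048228, minus strand), had 122 to 405 counts per cow. Its levels were 8.55, 10.5 and 14.5 CPM (lowest, median and highest) in the high group. In the low group they were 9.45, 10.1 and 15.5 CPM, with 5 cows at or below 10.9 CPM and replicate 8 at the top. The exons of *NR1D1* share 263 bases with *THRA*, the thyroid hormone receptor alpha gene on the opposite strand (52.1 CPM on average). The count tables name no option for strand, so reads over these bases cannot be assigned to either gene with certainty. *NR1D2*, on chromosome 27 (41866520 to 41883521, minus strand), had 81 to 302 counts per cow. It ranged over 3.99, 6.88 and 19.4 CPM (lowest, median and highest) in the high group and over 5.07, 7.42 and 8.52 CPM in the low group. The 19.4 CPM of replicate 4 lay far from all others, since the next cow of the high group was at 8.05 CPM.

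*DBP*, on chromosome 18 (55722336 to 55729578, minus strand), was the most counted of the 8 genes with 442 to 1258 counts per cow. Its lowest, median and highest levels were 33.5, 46.7 and 53.2 CPM in the high group. They were 39.6, 45.4 and 49.6 CPM in the low group, which lay inside the range of the high group. *TEF*, on the plus strand of chromosome 5 (113028012 to 113037944), had 92 to 303 counts per cow on a short exon length of 933 bases. Its levels were 8.03, 9.81 and 12.7 CPM in the high group and 8.24, 10.6 and 11.1 CPM in the low group. For both genes the lowest cow was replicate 1 and the highest replicate 5 of the high group.

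**Figure D1:**
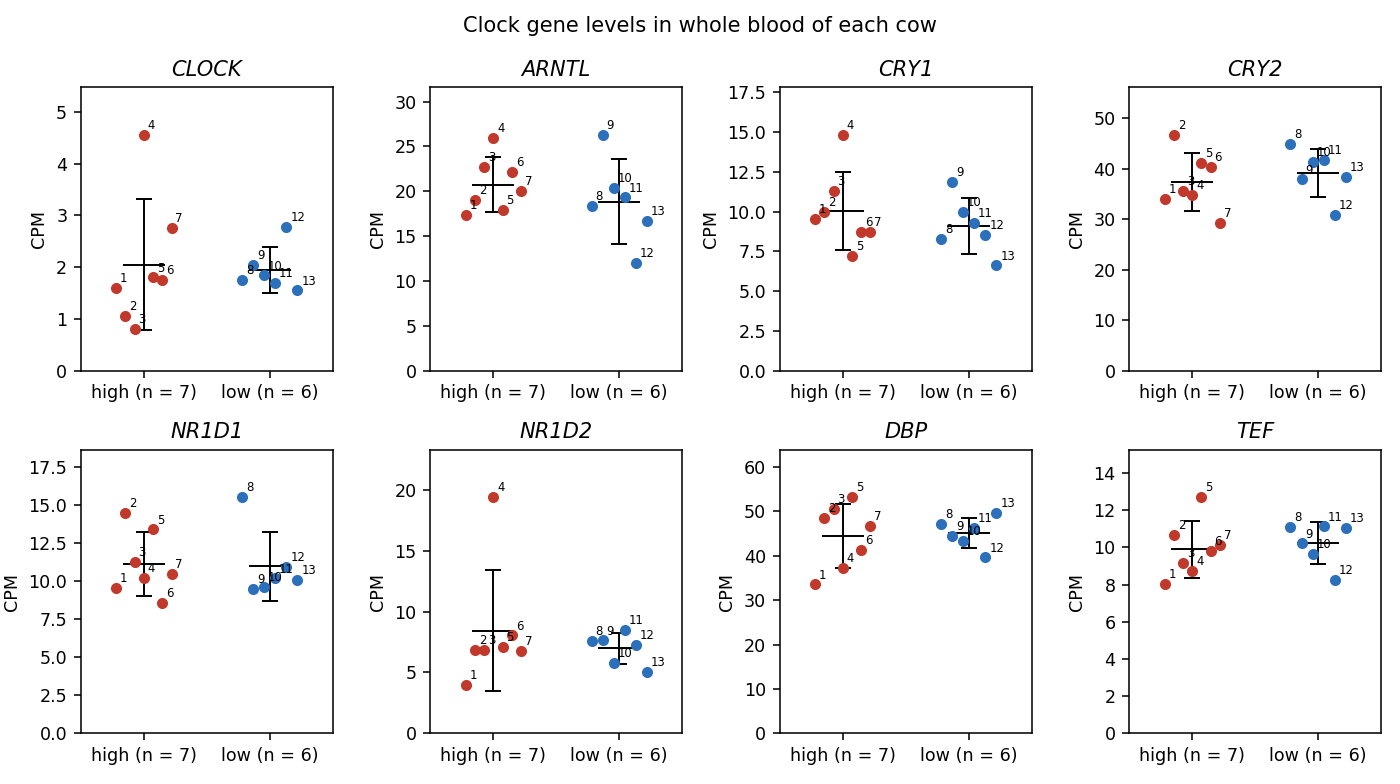
Level of each clock gene (CPM, vertical axis from 0, with its own scale per gene) in the 7 cows of the high group (red) and the 6 of the low group (blue), numbered by replicate, with the mean (bar) and SD (whiskers) of each group. The groups overlap for all 8 genes, and high replicate 4 is the top point for *CLOCK*, *CRY1* and *NR1D2* (4.56, 14.9 and 19.4 CPM).

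The comparison of the groups asked whether clock genes differed in expression with milk cortisol. None of the 8 was over-expressed or under-expressed in the high group by edgeR's quasi-likelihood test, with an adjusted p of 0.999 for each. The background was 0.0% of genes called at an adjusted p of 0.05 (0 of 11033) and 2.09% at an unadjusted p of 0.05 (231 genes, 0.934% higher and 1.16% lower in the high group), and 0 of the 8 clock genes reached either threshold with edgeR, DESeq2 or limma-voom. The groups did not overlap in CPM for 0.0453% of all genes tested and for 0 of the 8. The log2 fold change (high minus low) was positive for 5 of them and negative for 3, with a median of 0.05 beside 0.01 over all genes tested, of which 53.3% were higher in the high group.

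Among the activators, *ARNTL* averaged 20.7 ± 3.05 CPM (SD, n = 7) in the high and 18.9 ± 4.69 CPM (n = 6) in the low group, with a log2 fold change of 0.14 (SE 0.16, 95% interval −0.20 to 0.47). *CLOCK* was at 2.05 ± 1.27 and 1.94 ± 0.440 CPM, a log2 fold change of 0.09 (SE 0.34, interval −0.64 to 0.82). This was the widest interval of the 8 genes. Without replicate 4 of the high group the value was −0.22 for *CLOCK* and 0.073 for *ARNTL*. Only 2 of 7 cows of the high group lay above the low median for *CLOCK*, against 5 of 7 for *ARNTL*.

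The repressors had mean differences of opposite sign. *CRY1* was at 10.1 ± 2.47 CPM in the high and 9.10 ± 1.77 in the low group (log2 fold change 0.14, SE 0.18, interval −0.24 to 0.52), and without replicate 4 of the high group the fold change was 0.023. *CRY2* was at 37.4 ± 5.75 and 39.2 ± 4.82 CPM (−0.07, SE 0.12, interval −0.32 to 0.19). Neither difference exceeded the spread between cows (unadjusted p = 0.444 and 0.582 by edgeR).

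For the REV-ERB genes, *NR1D1* had nearly the same mean in the high and low groups (11.1 ± 2.11 and 11.0 ± 2.29 CPM, log2 fold change 0.02, SE 0.17, interval −0.33 to 0.37). Its sign turned when any of replicates 2 and 5 of the high group or 9, 10, 11 and 13 of the low group was left out, within −0.05 to 0.15. *NR1D2* had the largest log2 fold change of the 8 genes (8.44 ± 5.00 and 6.97 ± 1.29 CPM, 0.27, SE 0.29, interval −0.34 to 0.88). Its mean was set by a single cow, since only 2 of 7 cows of the high group were above the low median, and leaving out replicate 4 gave −0.084.

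The output genes had narrow intervals. *DBP* was at 44.5 ± 7.28 CPM in the high and 45.1 ± 3.45 in the low group (log2 fold change −0.02, SE 0.12, interval −0.27 to 0.23), and the value turned to 0.038 and 0.017 when high replicate 1 or 4 was left out, and to 0.01 when low replicate 13 was. *TEF* was at 9.89 ± 1.52 and 10.2 ± 1.14 CPM (−0.05, SE 0.14, interval −0.35 to 0.25). *PER1*, given beside them, was at 18.8 ± 2.16 and 19.5 ± 3.32 CPM (−0.05, SE 0.13, interval −0.33 to 0.23), and its sign turned without replicate 4 of the high group or 8 or 13 of the low group (largest value 0.03).

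All 1716 ways to split the cows into 7 and 6 were used for exact two-sided permutation tests of log2 CPM, which gave p between 0.356 (*ARNTL*) and 0.890 (*NR1D1*) for the 8 genes (0.890 for each after adjustment over the 8), where the smallest p that the design allows is 0.000583. Blood make-up varied too. The summed erythroid markers lay between 378 and 7844 CPM in the high group and between 137 and 572 CPM in the low group. Their marker score had an exact permutation p of 0.0460, unadjusted. This was the smallest p of the 8 cell type scores compared, and the others lay between 0.163 (neutrophil) and 0.913 (monocyte). With the share of haemoglobin counts as a covariate in edgeR the log2 fold change turned to −0.20 for *CLOCK* and 0.039 for *CRY2*, was smaller for *ARNTL* (0.042) and *NR1D2* (0.10), and was farther from 0 for *DBP* (−0.13), *TEF* (−0.14) and *NR1D1* (0.048), while *CRY1* was at 0.16. With the neutrophil minus T cell score as a covariate the log2 fold change was −0.018 for *CLOCK*, −0.029 for *CRY2* and 0.12 for *ARNTL*. It was farther from 0 than without a covariate for *NR1D2* (0.33), *CRY1* (0.19), *NR1D1* (0.092), *TEF* (−0.081) and *DBP* (−0.029). In both fits 0 of the 8 genes had an unadjusted p below 0.05.

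**Figure D2:**
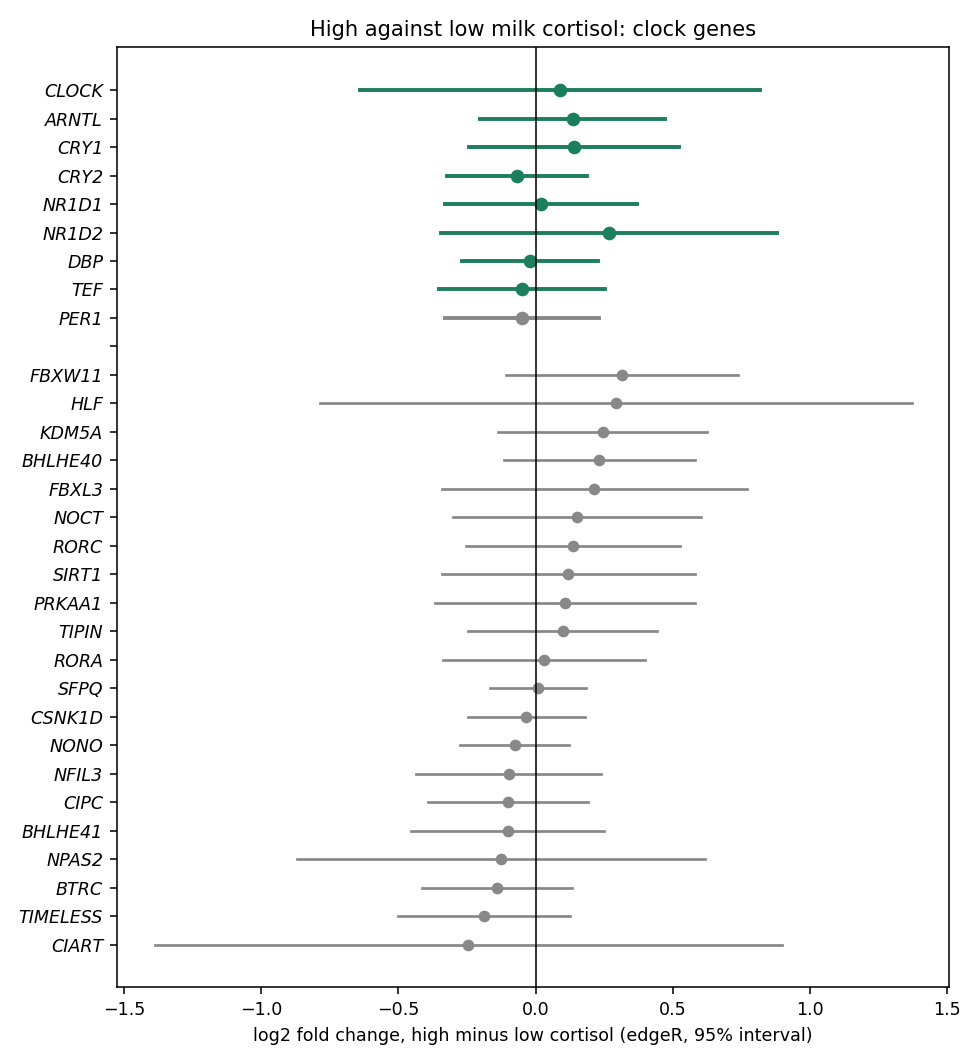
Log2 fold change, high minus low group, of the 8 clock genes (green), *PER1* and 21 other clock-related genes (grey), with 95% intervals from edgeR (7 and 6 cows). Every interval includes 0, and those of *CLOCK* and *NR1D2* are the widest of the 8 clock genes.

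Although the group means differed little, individual cows differed widely for some clock genes. The ratio of the highest to the lowest cow was 5.64 for *CLOCK* and 4.86 for *NR1D2*, 2.24 for *CRY1*, 2.19 for *ARNTL* and 1.81 for *NR1D1*, and smaller still for *CRY2*, *DBP* (1.59) and *TEF* (1.58). The coefficient of variation over the 13 cows was 47.8% for *NR1D2* and 47.3% for *CLOCK*, against 12.6% for *DBP*, 13.1% for *TEF* and 13.6% for *CRY2*. Without replicate 4 of the high group it dropped to 18.9% for *NR1D2* and 32.0% for *CLOCK*, and to 16.5% from 22.3% for *CRY1*. *CLOCK* was thus the most variable of the 8 genes with or without this cow on the log2 scale (SD 0.58 and 0.46), at the lowest counts.

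Measured against other genes, the SD of log2 CPM was above the median of all genes tested (0.31) for 2 of the 8, *CLOCK* (0.58) and *NR1D2* (0.51), and the median over the 8 was 0.27. Without replicate 4 of the high group the SD of *NR1D2* was 0.30. *DBP*, *TEF* and *CRY2* were among the steadier genes, with 17.3%, 16.9% and 20.8% of all genes tested having a smaller SD. The biological coefficient of variation that edgeR estimated was below the trend for genes of like abundance for *TEF* (0.190 against 0.293), *CRY1* (0.233 against 0.297), *NR1D1* (0.218 against 0.287), *CRY2*, *ARNTL* and *DBP*. It was above the trend for *NR1D2* (0.361 against 0.313) and close to it for *CLOCK* (0.402 against 0.398).

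**Figure D3:**
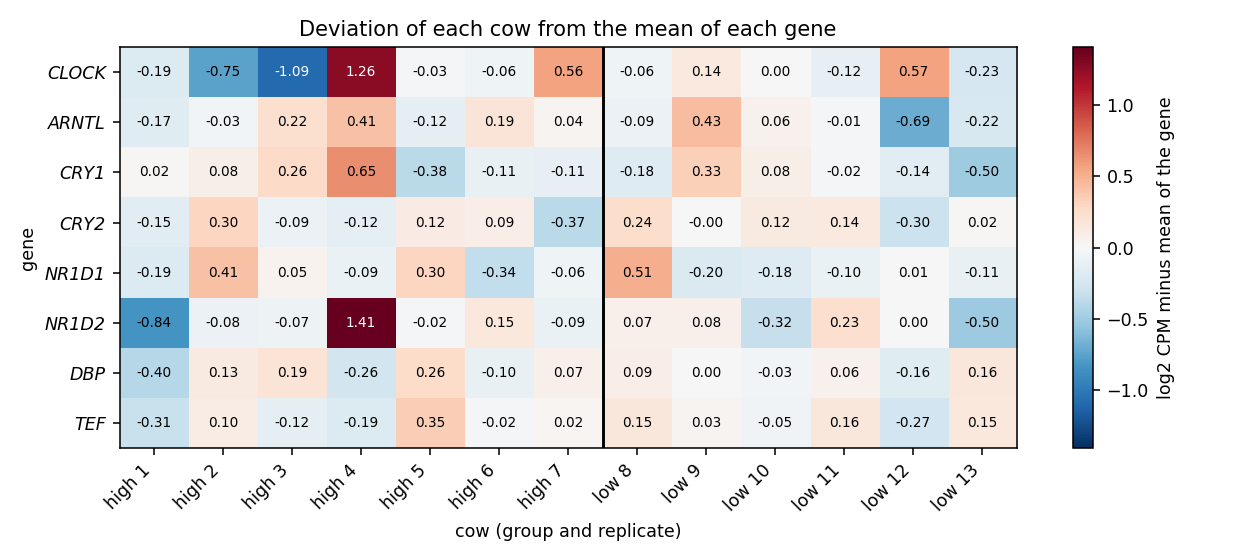
Deviation of each cow (columns, high replicates 1 to 7 left of the line, low replicates 8 to 13 right) from the mean log2 CPM of each clock gene (rows), in log2 units. Replicate 4 of the high group reaches 1.41 for *NR1D2* and 1.26 for *CLOCK*, while replicate 1 is the lowest cow for *NR1D2* (−0.84), *DBP* (−0.40) and *TEF* (−0.31).

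Replicate 4 of the high group was the highest cow for 3 of the 8 genes (*CRY1*, *CLOCK* and *NR1D2*) and the lowest for 0, beside the 27.9% and 23.8% of all genes given above. Its *DBP* and *TEF* were on the low side, at 37.2 and 8.74 CPM. The first principal component over all genes, which this library dominated, correlated with *CRY1* (r = 0.84), *NR1D2* (0.77), *ARNTL* (0.64) and *CLOCK* (0.52) over the 13 cows and had negative r with *DBP* (−0.53), *TEF* (−0.45), *NR1D1* (−0.41) and *CRY2* (−0.27). Without the library r was 0.71 for *CRY1* and 0.55 for *ARNTL*, but 0.37 for *NR1D2* and 0.05 for *CLOCK*. For *PER1*, given beside them, r was −0.63 over the 13 cows and −0.37 without the library, opposite in sign to *CRY1*. These are descriptions, since the clock genes are themselves among the genes that make the component.

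To see which clock genes moved together from cow to cow, the 28 pairs were correlated over the 13 cows in log2 CPM, with permutation p from 100000 resamples and adjustment over the 28. A single pair passed, *DBP* with *TEF* (Pearson r = 0.82, permutation p = 0.0005, adjusted p = 0.0140). Spearman's rho was 0.71 (permutation p = 0.00871, adjusted p = 0.122), so that the call was not kept on ranks. The correlation was 0.81 in the high group and 0.94 in the low group, and 0.70 without the 2 cows farthest from the median of *DBP*, replicates 1 and 4 of the high group. With single cows left out r lay between 0.75 and 0.94, and the adjusted permutation p was above 0.05 without replicate 1 (0.0945), 2 (0.0518) or 5 (0.0854) of the high group. The cows with the lowest values of both genes were high replicates 1 and 4 and low replicate 12, while high replicate 3 combined a high *DBP* (50.6 CPM) with a low *TEF* (9.14 CPM).

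Seen against all other genes, only 5 of 11032 genes (0.0453%) had a larger r with *DBP* than *TEF* had, and likewise only 5 had a larger r with *TEF* than *DBP* had. The ratio of *TEF* to *DBP* in RPKM had a median of 0.424 and stayed within 0.334 and 0.445 in all 13 cows, and the lowest was that of replicate 3 of the high group. It did not differ between the groups beyond the spread (difference in log2 ratio −0.02, exact permutation p = 0.822, also after adjustment over the 4 ratios of paired genes compared). The ratio of *CLOCK* to *ARNTL*, by contrast, ranged from 0.0324 to 0.211, with a median of 0.0839.

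The next pair was *CRY1* with *ARNTL* (r = 0.68, permutation p = 0.0131, adjusted p = 0.183, rho 0.76, permutation p = 0.00339, adjusted p = 0.0949). It was positive in both groups (0.76 high, 0.65 low) and 0.58 without the 2 cows farthest from the median of *CRY1*. Without replicate 12 of the low group, the cow with the lowest *ARNTL*, r was 0.83 and the pair passed (adjusted permutation p = 0.0126). Among all genes 13.7% had a larger r with *CRY1* than *ARNTL* had, and 3.73% had a larger r with *ARNTL* than *CRY1* had. *CRY2* with *TEF* followed (r = 0.61, adjusted permutation p = 0.235), with 1.78% of genes having a larger r with *TEF*.

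**Figure D4:**
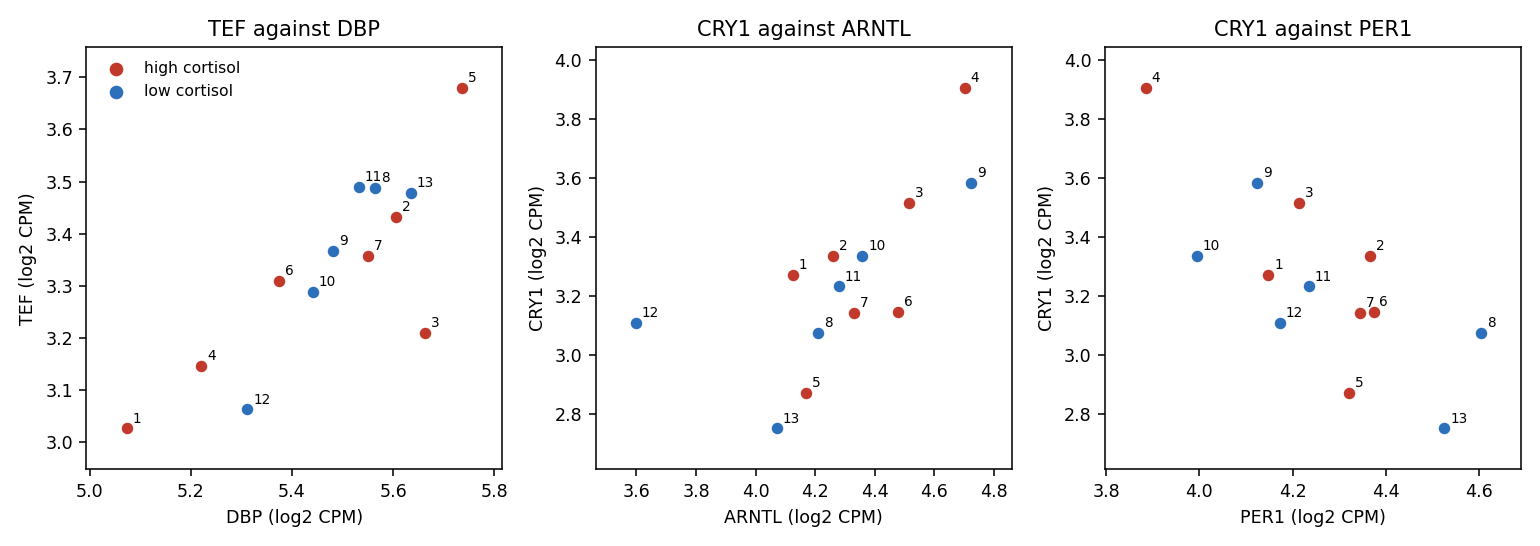
Log2 CPM of *TEF* against *DBP*, *CRY1* against *ARNTL* and *CRY1* against *PER1* in 13 cows, numbered by replicate (red, high group, blue, low group). The correlations are 0.82, 0.68 and −0.75, and cows of both groups are interleaved in each panel.

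Some correlations rested on replicate 4 of the high group. *NR1D2* correlated with *CRY1* at 0.60 and with *CLOCK* at 0.59 (adjusted permutation p = 0.248 for both), and these were 0.15 and 0.12 without that library. *CLOCK* with its partner *ARNTL* was at 0.04 over all cows and −0.34 without it. Paralogs had correlations close to 0, with r = −0.13 for *CRY1* with *CRY2* and r = 0.03 for *NR1D1* with *NR1D2*, and without that cow −0.01 and 0.21. The ratio of *NR1D1* to *NR1D2* in RPKM was 0.403 in replicate 4, while it lay between 0.813 and 1.83 in the other 12 cows. The ratio of *CRY1* to *CRY2* was also highest in replicate 4 (0.552, against 0.223 to 0.410 in the other cows).

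Over the 28 pairs, 16 had a positive r. The signs fell into 2 sets that were read from these same correlations and were therefore not tested. Within *CRY2*, *NR1D1*, *DBP* and *TEF*, 6 of 6 pairs were positive, with r between 0.41 and 0.82. Within *CRY1*, *CLOCK*, *ARNTL* and *NR1D2*, 6 of 6 pairs were positive too (0.04 to 0.68), and between the sets 12 of 16 were negative. The first set was positive in 6 of 6 pairs without replicate 4 of the high group (0.37 to 0.80), within the high group and within the low group. The second was positive in 4 of 6 pairs without that library, and pairs between the sets were then negative in 9 of 16. Between the sets 16 of 16 pairs were negative within the high group and 9 of 16 within the low group.

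**Figure D5:**
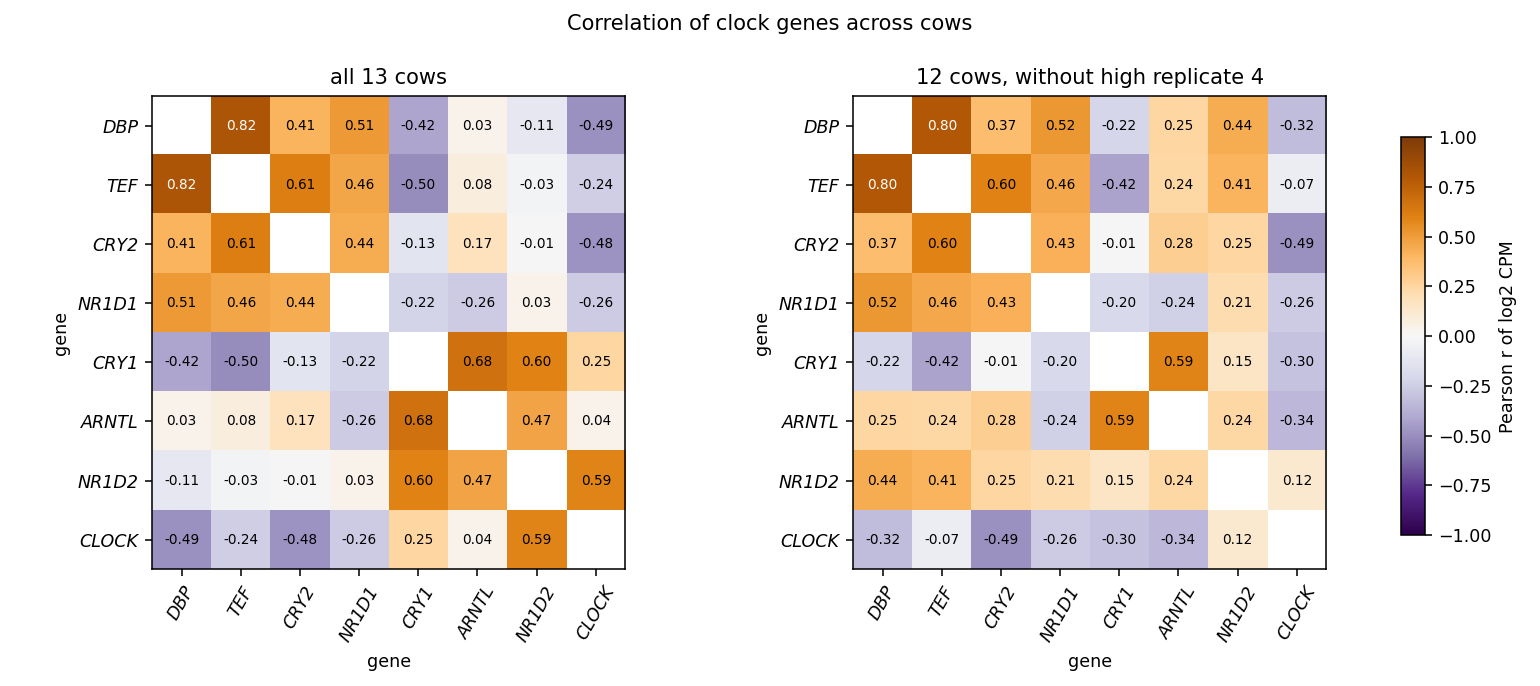
Pearson r of log2 CPM for each pair of the 8 clock genes over 13 cows (left) and over 12 cows without high replicate 4 (right), coloured from −1 (purple) to 1 (orange). The block of *DBP*, *TEF*, *CRY2* and *NR1D1* is positive in both panels, while r of *NR1D2* with *CRY1* falls from 0.60 to 0.15 and with *CLOCK* from 0.59 to 0.12.

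Each of the 8 genes was also set against 11 other measures of the cows, namely the level of *PER1*, the number of counts, a glucocorticoid response score and scores of 8 blood cell types, which gave 88 relations. A score is the mean of the log2 CPM of its list, centred on each gene's mean. None passed the adjustment over the 88, and 2 had an unadjusted permutation p below 0.01 (adjusted p = 0.207 for both). *CRY1* had a negative correlation with *PER1* (r = −0.75, permutation p = 0.00306, rho −0.69, permutation p = 0.0117, adjusted p = 0.517), with −0.82 within the high group and −0.72 within the low group. It was −0.65 without the 2 cows farthest from the median of *PER1*, and between −0.79 and −0.62 with single cows left out. Of all genes, 4.33% had a more negative r with *CRY1* than *PER1* had.

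*CRY2* had a positive correlation with the glucocorticoid response score (r = 0.73, permutation p = 0.00471, rho 0.73, permutation p = 0.00588, adjusted p = 0.517), a list of 9 genes measured such as *TSC22D3* and *FKBP5*, which glucocorticoids are known to induce. Here r was 0.69 in the high group and 0.97 in the low group, and it was 0.56 without the 2 cows farthest from the median score. Without replicate 4 of the high group r was 0.84, just past the threshold (adjusted permutation p = 0.0484). With any other single cow left out the relation did not pass (adjusted permutation p between 0.177 and 0.697). The smallest r was then 0.65, without replicate 12 of the low group. *CRY2* also had r = 0.67 with the monocyte score (adjusted permutation p = 0.319), and this was 0.21 without the 2 cows farthest from the median of that score. The glucocorticoid score itself did not differ between the groups beyond the spread (exact permutation p = 0.490).

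*PER1* had r = 0.58 with *TEF* and r = 0.56 with *DBP* (adjusted permutation p = 0.546 and 0.551), the output genes. With *CLOCK*, *ARNTL* and *NR1D2* its r was −0.42, −0.34 and −0.39, but −0.098, −0.13 and 0.15 without replicate 4 of the high group. The cytotoxic and NK cell score had r = −0.60 with *DBP* and −0.56 with *TEF*, which were −0.28 and −0.35 without the 2 cows farthest from the median score. *TEF* had r = 0.60 with the log2 number of counts (adjusted permutation p = 0.521). Against the neutrophil score, the 8 genes had r between −0.32 (*CLOCK*) and 0.45 (*CRY2*), and against the T cell score between −0.54 (*NR1D1*) and 0.31 (*TEF*). The parts of cell make-up and depth in the correlations between clock genes were not tested beyond the residuals on the neutrophil minus T cell score, on which *DBP* and *TEF* had r = 0.83 (adjusted permutation p = 0.0028). On these residuals *CRY2* with *TEF* (r = 0.79, adjusted permutation p = 0.0154) and *CRY1* with *ARNTL* (r = 0.76, adjusted permutation p = 0.0331) also passed.

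For other genes of the clock, a list of 28 partners, kinases and regulators was examined. Of these, 25 had an entry, 21 were tested, and 0 had an unadjusted p below 0.05 by edgeR (background 2.09%). The log2 fold change was positive for 12 and negative for 9, with a median of 0.03. The most abundant were *NONO* (514 ± 47.4 CPM, SD, n = 13) and *SFPQ* (210 ± 13.6 CPM), which encode RNA-binding proteins that associate with the PER complex, and *CSNK1D* (322 ± 34.7 CPM), a kinase that phosphorylates PER proteins. Their log2 fold changes were −0.08, 0.01 and −0.03. *PPARGC1A* was at 0 counts in all cows, and *ARNTL2*, *RORB* and *USP2* fell below the filter, with at most 2, 4 and 7 counts in a cow. Of the 21 tested, replicate 4 of the high group was the highest cow for 9 and the lowest for 3. Over all genes tested these shares were 27.9% and 23.8%.

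Finally, the genes with the largest r over the 13 cows were named for each clock gene, up to 2 each, as descriptions over all 11032 other genes tested. For *CRY1* these were *CD46*, a complement regulator (r = 0.95), and *LRRK2*, a kinase (0.95). *CRY1* correlated with much of the transcriptome, as 12.1% of genes had r above 0.7 with it, against 0.499% for *TEF*. *NR1D2* was closest to *LARP1*, an mRNA-binding protein (0.97), and *TACC1* (0.96), which were 0.92 and 0.88 without replicate 4 of the high group, and 8.97% of genes had r above 0.7 with it.

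*CLOCK* was closest to *MTX3* (0.93) and *DCAF17* (0.92), both at 0.87 to 0.88 without that library, and *ARNTL* to *UGT8* (0.92) and *SMURF2* (0.91), a ubiquitin ligase. *CRY2* was closest to *IL1RN*, the interleukin-1 receptor antagonist (0.90). *NR1D1* was closest to *PPM1F*, a phosphatase (0.86), and *IRF5*, an interferon regulatory factor (0.86). For *DBP* the closest were *MPG*, a DNA repair glycosylase (0.86), and *GPR132* (0.83), and for *TEF* they were *CD5* (0.89), a surface receptor that is also in the T cell list, and *CALHM2* (0.88). None of the genes so named belonged to the clock list.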

How the data were processed

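Whole blood of 13 cows was sequenced without globin depletion, and the authors deposited counts, the whole number of reads assigned to each named gene, not normalized. The labels and the methods of the study name STAR 2.7.3, Subread 1.6.5 and ARS-UCD1.2, while the file headers name featureCounts 1.4.6-p3 with Ensembl release 88 gene models of UMD3.1, and no option for strand. The headers also name alignments by animal numbers other than those of the tables, under a directory called after goats, so species and groups are as labelled. Positions are on UMD3.1. Genes without a name share 1 entry (13.86% to 16.73% of counts), which was left out. No 2 libraries held the same counts. Cows are separate animals.

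CPM scaled by TMM factors, log2 CPM (with 2 as prior count) and, from the exon length of the tables, RPKM were computed here. Groups were taken from the sample labels and compared with edgeR 4.0.16 (quasi-likelihood, robust, filterByExpr with minimum count 10 and total 15, no covariates) in R 4.3.3, with Benjamini-Hochberg adjustment over all genes tested. Standard errors are the log2 fold change over the square root of F. DESeq2 1.42.0, limma-voom (limma 3.58.1), RLE factors, no filter, covariates, ranks, another prior count (0.5) and each cow left out were alternatives, with 20000 resamples for correlations. Ratios of paired genes were added after the data were seen. The tests were tried on simulated data. The clock genes and lists were chosen with earlier results of these data known. Named genes were the clock genes, *PER1*, the 3 most abundant other clock genes, overlapping genes and the 2 closest genes of each clock gene, of which 1 is not reported here.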

Additional observations from a re-analysis of the deposited data

Results flagged for a closer look

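In 36 comparisons of the highest or lowest cow of a group with its nearest neighbour (Dixon's test at 95%, on CPM of the 8 clock genes and *PER1*), 2 cows lay beyond the limit. Chance gives at most about 1 in 20 of such comparisons. *NR1D2* in replicate 4 of the high group was at 19.4 CPM, with the next cow at 8.05 CPM, a gap of 0.737 of the range of the group (limit 0.568). *NR1D1* in replicate 8 of the low group was at 15.5 CPM, with the next cow at 10.9 CPM, a gap of 0.756 of the range (limit 0.625).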

How the results depend on the processing

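Across all alternatives and with each cow left out, 0 of the 8 clock genes reached an unadjusted p of 0.05. Over all genes the number called went from 0 to 1 with DESeq2 (*CYP4X1*, named after its value was seen), and was 0 with each cow left out. The number at an unadjusted p of 0.05 went from 231 to 348 with DESeq2, 414 without a filter and 120 with the haemoglobin share as a covariate, and lay between 191 and 373 with single cows left out (373 without replicate 2 and 363 without replicate 5 of the high group). Without a filter, 1 other clock gene reached that p, *RORB*, at 0 to 4 counts. The pairs of clock genes past adjustment went from 1 to 0 with Spearman's rho and to 3 in residuals on the neutrophil minus T cell score, and lay between 0 and 2 with single cows left out. The relations with other measures went from 0 to between 0 and 1.

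The sign of the log2 fold change turned with the haemoglobin covariate for *CRY2* (0.039), *CLOCK* (−0.20) and *CSNK1D* (0.021), with the neutrophil minus T cell score as a covariate for *CLOCK* (−0.018) and *CSNK1D* (0.0074), and with limma-voom for *CLOCK* (−0.041). In the residuals, r turned for *CLOCK* with *ARNTL* (−0.011) and *NR1D1* with *NR1D2* (−0.027). The causes were not tested. With single cows left out the log2 fold change ranged from −0.22 to 0.22 for *CLOCK*, 0.023 to 0.23 for *CRY1*, 0.037 to 0.25 for *ARNTL*, −0.050 to 0.15 for *NR1D1*, −0.084 to 0.39 for *NR1D2*, −0.072 to 0.038 for *DBP*, −0.10 to 0.028 for *PER1*, −0.082 to 0.017 for *CSNK1D* and −0.041 to 0.040 for *SFPQ*. The r of *CLOCK* with *ARNTL* ranged from −0.34 to 0.36, and that of *NR1D1* with *NR1D2* from −0.092 to 0.21.

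The groups are different cows, and no matching of cows between them is stated, so no paired analysis was made. With 10 to 71 counts per cow, *CLOCK* is the least precisely measured of the 8 genes. A search of promoter sequences for motifs was not run.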
